A study of Homo sapiens with 30 samples.

Results

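Promoters that carried trimethylated lysine 4 of histone H3 (H3K4me3) in parental MDA-MB-231 cells but overlapped no SAP30 region shared by both SAP30 replicates were examined. The regions were selected on 2 measurements, the H3K4me3 and the SAP30 summit lists of parental cells. Summits of both H3K4me3 replicates were extended by 500 bp on each side and merged, and a region was kept if it held a summit of each replicate. A region counted as a promoter when its summit span lay within 1000 bp of an annotated start site, counting coding genes and those for long noncoding RNA (lncRNA). It counted as region-negative when it shared no base with a SAP30 region built in the same way. Of 18303 H3K4me3 regions, 13422 were promoters, and 1139 of these (8.49%) were region-negative. The name refers to SAP30 regions and not to single summits, since 504 of the 1139 (44.2%) had a SAP30 summit in at least 1 list. The other 12283 were SAP30-bound promoters and served for comparison.

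The study used chromatin immunoprecipitation followed by sequencing (ChIP-Seq) in MDA-MB-231, a triple-negative breast cancer cell line with mesenchymal features. Parental cells were compared with SAP30-KO1, which by the study's methods was a mixture of knockout clones made with CRISPR/Cas9. SAP30, SIN3A and SIN3B were mapped in parental cells, and H3K4me3, acetylated lysine 9 of histone H3 (H3K9Ac) and RNA polymerase II (Pol II) in both lines. Each of these 9 groups had 2 libraries. The labels did not say whether the 2 were separate cultures, so tests over libraries measured the spread between libraries, which may be technical.

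SAP30 is a small subunit of the SIN3 complex, which holds histone deacetylases and is best known as a corepressor, although SIN3 proteins also sit at active promoters. H3K4me3 is laid down by MLL and SET1 methyltransferases and marks most active promoters, with a strong preference for CpG-rich DNA, and it also occurs at CpG-rich promoters that are not transcribed. H3K9Ac and Pol II at a start site are usual companions of active transcription.

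The 18 peak lists held between 10861 and 54622 summits, and the 4 H3K4me3 lists between 20735 and 24079. The deposited files gave summit positions and scores but no reads, so sequencing depth was unknown and a peak that was missing from a list could lie just under the caller's threshold. Within a group, 76.1% to 93.9% of the summits of 1 replicate were matched, at up to 1000 bp, in the other. All 6 mesenchymal genes looked up (VIM, CD44, AXL, CAV1, ZEB1 and EGFR) had H3K4me3 at a start site in 4 of 4 lists, as did the epithelial genes EPCAM, KRT8, KRT19, ESRP1 and ESR1. CDH1 had it in 2 of 4, and GRHL2 and the blood and liver genes PTPRC, CD3E and ALB in 0 of 4. PECAM1 was not analysed here. The SAP30 gene itself was a SAP30-bound promoter with H3K4me3 in every list, with ranks of 11.3% and 22.1% in parental and 23.9% and 30.3% in KO1 cells. A promoter mark does not show whether the protein was lost, and the knockout itself was not checked by these lists. Ranks are percentiles of a summit's score within its own list, from 0% for the best peak to 100% for the last.

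To show the kind of DNA involved, the 150 bases before the start site are given for 7 region-negative promoters and, for comparison, for the SAP30-bound promoter of NOTCH3. The 7 run from CpG-dense to CpG-poor and reappear in the results. None of the 8 stretches overlapped an annotated exon. Capitals mark CpG dinucleotides, all positions are in GRCh37 (hg19), and each sequence reads 5′ to 3′ toward the start site. JUNB (chr19:12902150-12902299, plus strand) and CAV1 (chr7:116164898-116165047, plus strand) lie beside a SAP30 region. TMEFF2 (chr2:193059660-193059809, minus strand) had a SAP30 summit but no SAP30 region. KIAA1614 (chr1:180881883-180882032, plus strand), FUNDC1 (chrX:44402106-44402255, minus strand), MAGEC2 (chrX:141293077-141293226, minus strand) and HLA-DMB (chr6:32908806-32908955, minus strand) had no SAP30 summit in either list. NOTCH3 is at chr19:15311807-15311956, minus strand. The JUNB and TMEFF2 stretches lie outside their H3K4me3 regions, which are at chr19:12902646-12903734 and chr2:193060154-193061163. The summit spans of these regions were 846 and 995 bp from the start site. The stretches of CAV1 and MAGEC2 overlap their regions in part.
JUNB: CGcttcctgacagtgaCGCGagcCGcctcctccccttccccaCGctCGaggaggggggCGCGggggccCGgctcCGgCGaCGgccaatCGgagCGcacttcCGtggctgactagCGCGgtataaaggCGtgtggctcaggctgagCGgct
CAV1: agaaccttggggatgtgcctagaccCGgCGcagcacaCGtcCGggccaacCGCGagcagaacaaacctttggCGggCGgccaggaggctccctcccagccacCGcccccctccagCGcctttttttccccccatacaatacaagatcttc
TMEFF2: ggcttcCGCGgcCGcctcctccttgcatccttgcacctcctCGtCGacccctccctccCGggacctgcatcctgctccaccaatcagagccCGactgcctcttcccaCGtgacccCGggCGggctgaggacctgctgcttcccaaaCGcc
KIAA1614: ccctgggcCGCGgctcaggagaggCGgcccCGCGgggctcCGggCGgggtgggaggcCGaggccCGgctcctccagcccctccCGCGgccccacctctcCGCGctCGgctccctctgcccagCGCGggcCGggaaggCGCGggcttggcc
FUNDC1: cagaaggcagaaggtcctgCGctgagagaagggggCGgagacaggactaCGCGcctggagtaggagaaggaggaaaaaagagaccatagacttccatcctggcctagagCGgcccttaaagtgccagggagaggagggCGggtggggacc
MAGEC2: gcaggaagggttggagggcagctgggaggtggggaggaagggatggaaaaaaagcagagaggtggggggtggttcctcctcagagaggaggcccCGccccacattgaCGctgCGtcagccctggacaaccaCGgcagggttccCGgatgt
HLA-DMB: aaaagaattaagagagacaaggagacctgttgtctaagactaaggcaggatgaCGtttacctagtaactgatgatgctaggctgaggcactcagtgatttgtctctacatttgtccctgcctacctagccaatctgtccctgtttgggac
NOTCH3: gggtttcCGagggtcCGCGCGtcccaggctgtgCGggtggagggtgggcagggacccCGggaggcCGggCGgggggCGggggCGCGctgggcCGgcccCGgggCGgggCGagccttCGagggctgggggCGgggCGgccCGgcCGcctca
These stretches held 19 CpGs at JUNB, 10 at CAV1, 11 at TMEFF2, 19 at KIAA1614, 6 at FUNDC1, 5 at MAGEC2 and 1 at HLA-DMB, against 20 at NOTCH3. Over the same 150 bases, the median was 12 CpGs for region-negative and 15 for SAP30-bound promoters.

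Region-negative promoters were not of 1 kind. By their place relative to SAP30 they were split, after the data had been seen, into 3 classes. In 281 regions (24.7%) the edge lay within 2000 bp of a SAP30 region, and these are called SAP30-adjacent. A SAP30 summit of at least 1 list was found at 131 of them (46.6%). A further 373 (32.7%) were more distant from any SAP30 region but had a SAP30 summit in at least 1 of the 2 lists, which had not met a summit of the other list, and these are called unmatched. In 485 (42.6%) neither list had a SAP30 summit, and these are called SAP30-clear. The median gap to the nearest SAP30 region was 401 bp for adjacent and 51660 bp for SAP30-clear promoters. Of the unmatched promoters, 260 had a summit in SAP30 list 1 alone, 92 in list 2 alone and 21 in both without forming a region. Those summits ranked late in the SAP30 lists, with medians of 74.7% in list 1 and 74.0% in list 2. At the selection border, PAFAH1B1 and LARP1 were region-negative with a gap of 1 bp and FOXP4 with a gap of 3 bp, while KAT2B, WNT11 and MGA were SAP30-bound and shared 1, 4 and 4 bases with a SAP30 region. All start sites of the named gene were also searched for a SAP30 region with summits within 1000 bp, including the start site that named the promoter. At least 1 was found in 162 of 277 genes (58.5%) for the adjacent class, against 11.3% for unmatched and 8.33% for SAP30-clear promoters.

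SIN3 proteins, which the selection did not use, followed the same order. SIN3B regions of both parental replicates overlapped 73.0% of adjacent (205 of 281), 12.9% of unmatched and 0.825% of SAP30-clear promoters (4 of 485), against 79.1% of SAP30-bound promoters. For SIN3A these shares were 41.6%, 5.90%, 0.206% and 44.4%. A SAP30-clear promoter with a SIN3 peak was thus rare, with 5 of 485.

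Region-negative promoters as a whole had weak H3K4me3 peaks. Their median parental rank was 66.6% in list 1 and 66.5% in list 2, against 26.9% and 28.6% for SAP30-bound promoters, and 896 of 1139 (78.7%) were in the worse-ranked 50% of both lists, against 13.7%. The adjacent class was different, with a median of 35.4% for the mean of both lists, against 64.1% for unmatched and 73.6% for SAP30-clear promoters. Among the best 10% of both lists, 24 adjacent, 7 unmatched and 0 SAP30-clear promoters were found. When all 13422 promoters were divided into 10 equal groups by rank, region-negative promoters made up 1.34% to 3.05% of the 8 best groups, 15.9% of the ninth and 51.3% of the last (689 of them). H3K4me3 rank and lack of a SAP30 region therefore moved together, and both were part of the selection, so no test was made.

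**Figure D1:**
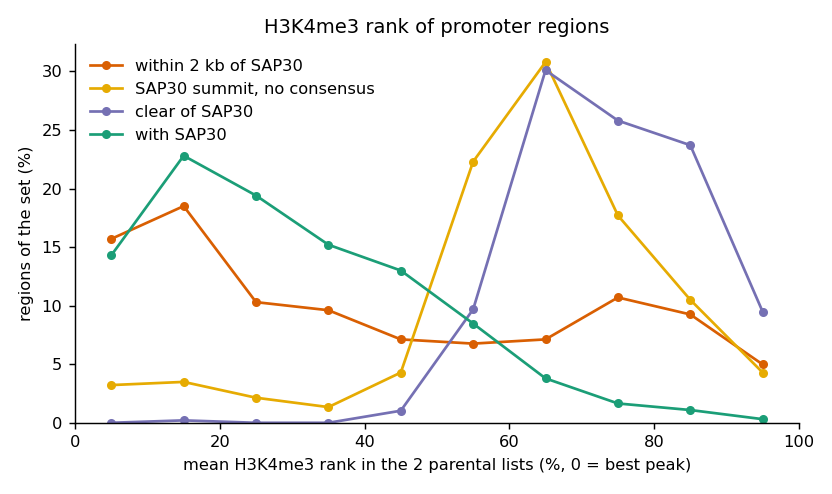
Share of the regions of each class (vertical axis, percent) by mean H3K4me3 rank in the 2 parental lists (horizontal axis, bins of 10%, 0 = best peak), with the adjacent class drawn as within 2 kb of SAP30 and the unmatched class as SAP30 summit, no consensus. The best bin held 15.7% of SAP30-adjacent and 14.3% of SAP30-bound promoters, and the bin from 20% to 30% held 10.3% and 19.4%. Of the SAP30-clear promoters, 97.9% were in the worse-ranked 50% of both lists.

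The strongest H3K4me3 peaks among region-negative promoters mostly lay just beside a SAP30 region. At EIF4G2, a translation initiation factor, the H3K4me3 summit ranked at 0.0208% and 1.71% in parental lists, and the region ended 56 bp from a SAP30 region. OAZ1, which encodes an inhibitor of polyamine synthesis, ranked at 0.930% and 1.84% with a gap of 106 bp. ARHGAP5, a GTPase-activating protein, ranked at 3.02% and 0.219% with a gap of 121 bp. Of the 10 best-ranked, 7 were adjacent. BTG1, an antiproliferative gene at chr12:92538696-92540696, was an exception, since it ranked at 3.26% and 0.429% although the nearest SAP30 region was 60740 bp away. SAP30 summits of both lists, at ranks of 19.5% and 17.5%, touched this wide H3K4me3 region without forming a SAP30 region. KIAA0232 was of the same kind, with SAP30 ranks of 7.84% and 5.51%, and ZMIZ1, a coactivator gene, had SAP30 in list 1 alone at 8.09%. Among the adjacent ones, OAZ1 had a SAP30 summit at 10.7% and ARHGAP5 at 29.1%, both in list 2, SIN3A at 14.9% in list 2, and CHST11 in both lists at 22.8% and 21.0%. In all, 7 of the 10 had a SAP30 summit in at least 1 list. SIN3A, the scaffold of the complex, was also among them: a region-negative start region at chr15:75743318-75744331 had ranks of 2.12% and 3.52% and lay 1489 bp from a SAP30 region, and a separate SAP30-bound region covered another start site of the gene. None of the other study genes looked up (PDGFB, PDGFD, CLDN1, RDX, ADM2, NOTCH3, ARTN, IPO13, HSPA6 and SAP30) was region-negative.

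Pol II and H3K9Ac were much less frequent at region-negative than at SAP30-bound promoters. In parental cells, a Pol II region of both replicates overlapped 294 of 1139 region-negative promoters, or 25.8% (95% Wilson interval 23.4% to 28.4%), against 89.7% of SAP30-bound and 84.3% of all H3K4me3 promoters. An H3K9Ac region overlapped 548, or 48.1% (45.2% to 51.0%), against 95.9% of SAP30-bound and 91.8% of all H3K4me3 promoters. These intervals cover counting error over regions only. The shares depended on the width of the regions: with summits extended by 250 bp they were 45.8% for Pol II and 64.2% for H3K9Ac (2848 promoters), and with 1000 bp 10.8% and 38.5% (852 promoters). By library, Pol II summits were found at 325 and 369 region-negative promoters in parental and at 335 and 298 in KO1 cells, and H3K9Ac summits at 652 and 627 in parental and 587 and 621 in KO1 cells. The share was lower than that of SAP30-bound promoters in 4 of 4 libraries for each mark. The difference was -59.5 percentage points ± 1.80 (SD, n = 4 libraries) for Pol II and -42.2 ± 2.06 for H3K9Ac, with an exact two-sided sign permutation p of 0.125 for each, the smallest that 4 libraries can give. Each SD over 4 libraries, here and below, covers 2 libraries of each line and so includes any difference between lines. For Pol II the difference was -62 and -59.8 points in parental and -58.2 in each KO1 library. For H3K9Ac it was -39.8 and -41.9 in parental and -44.8 and -42.1 in KO1 libraries.

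The 3 classes spanned most of that range. Pol II regions overlapped 66.2% of adjacent promoters (60.5% to 71.5%), 23.3% of unmatched (19.3% to 27.9%) and 4.33% of SAP30-clear promoters (2.85% to 6.53%, 21 of 485). H3K9Ac regions overlapped 75.4%, 55.0% and 27%. No summit in any of the 8 Pol II and H3K9Ac lists of either line was found at 225 SAP30-clear promoters (46.4%), against 4.27% of adjacent and 0.741% of SAP30-bound promoters. By the gap to SAP30, Pol II regions overlapped 80.9% of 47 promoters at up to 100 bp, 58.1% of 62 at 500 to 1000 bp, 61.0% of 59 at 1000 to 2000 bp, 26.7% of 60 at 2000 to 5000 bp and 6.45% of 248 beyond 100000 bp. The median H3K4me3 rank moved with the gap, from 22.6% in the nearest to 69.9% in the farthest group, and its part in this order was not tested.

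**Figure D2:**
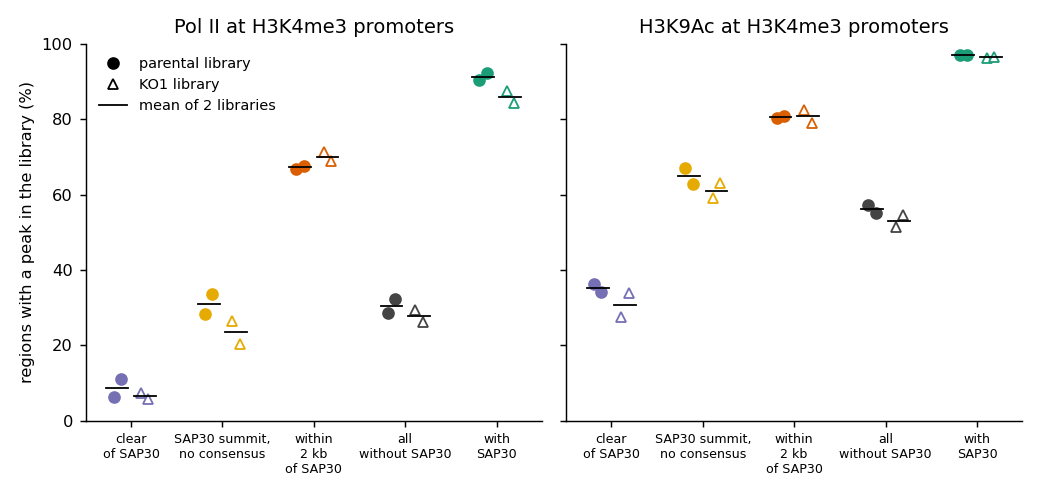
Share of promoters with a Pol II summit (left) or H3K9Ac summit (right) in each library, with region-negative promoters drawn as all without SAP30, 1 filled circle per parental library, 1 open triangle per KO1 library and a bar for the mean of 2. The SAP30-clear promoters lay between 5.77% and 11.1% for Pol II and between 27.6% and 36.3% for H3K9Ac, below the SAP30-bound promoters in every library.

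Because region-negative promoters had weak H3K4me3 peaks, the comparison was repeated with SAP30-bound promoters weighted to the same 10 groups of rank. The difference became smaller but kept its direction in 4 of 4 libraries. It was -27.1 points ± 5.18 for Pol II and -27.6 ± 0.989 for H3K9Ac over 4 libraries (exact sign permutation p = 0.125 for each). For SAP30-clear promoters alone, the rank-weighted difference was -38.2 ± 6.71 for Pol II and -43.9 ± 2.24 for H3K9Ac. Among promoters with a mean rank of 60% to 70%, Pol II regions overlapped 10.3% of 281 region-negative, 4.79% of 146 SAP30-clear and 43.2% of 465 SAP30-bound promoters. At the strong end the sets were closer: with ranks of up to 10%, Pol II overlapped 92.9% of 56 region-negative and 98.9% of 1759 SAP30-bound promoters.

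**Figure D3:**
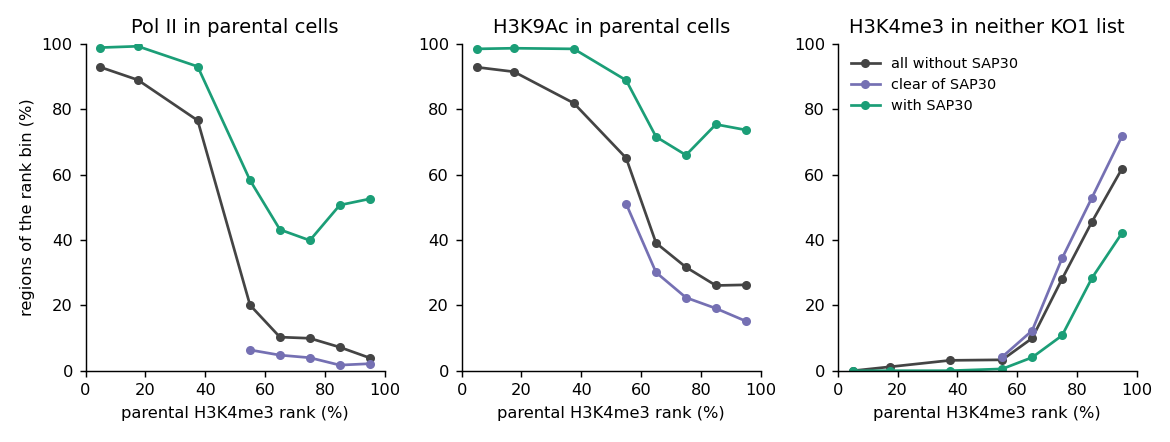
Share of promoters with Pol II (left) or H3K9Ac (middle) in both parental replicates and share with H3K4me3 in neither KO1 list (right), by mean parental H3K4me3 rank. Points are rank bins with at least 20 regions, and the region-negative lines lie below the SAP30-bound line for Pol II and H3K9Ac in each bin drawn.

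H3K9Ac without Pol II was a common state. It was found at 294 region-negative promoters (25.8%), against 7.82% of SAP30-bound promoters, whereas Pol II without H3K9Ac was found at 40 (3.51%). Both were present at 254 (22.3%) and neither at 551 (48.4%). Promoters with both had a median H3K4me3 rank of 27.2%, and those with neither 73.9%. LncRNA start sites made up 25.1% of region-negative and 11.8% of SAP30-bound promoters, or 29.9% of the SAP30-clear class. Pol II overlapped 28.1% of coding and 18.9% of lncRNA region-negative promoters, and H3K9Ac 47.6% and 49.7%.

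CpG content separated the SAP30-clear promoters by their H3K9Ac. In the 1000 bp around the start site, the ratio of observed to expected CpG had a median of 0.680 for region-negative (quartiles 0.506 and 0.814) and 0.783 for SAP30-bound promoters, and 0.635 for the SAP30-clear class. A ratio under 0.4 was found at 17.2% of region-negative, 5.04% of SAP30-bound and 44% of 36733 coding and lncRNA genes. Among promoters ranked beyond 50% the sets were closer, with a median ratio of 0.633 for region-negative and 0.653 for SAP30-bound ones, and the share under 0.4 was in the opposite order, at 21.4% and 24.2%. Of the SAP30-clear promoters with a ratio under 0.4, 60% of 90 had an H3K9Ac region, against 29.8% of 114 at 0.4 to 0.6, 18.2% of 192 at 0.6 to 0.8 and 8.99% of 89 at 0.8 or more. The median H3K4me3 ranks of these groups were 78.0%, 72.9%, 71.7% and 72.5%, so the group with the most H3K9Ac had the weakest H3K4me3. By library, H3K9Ac summits were found at 72.2%, 65.6%, 56.7% and 58.9% of the CpG-poorest SAP30-clear promoters (parental 1 and 2, KO1 1 and 2) and at 14.6%, 15.7%, 16.9% and 22.5% of the CpG-richest. The difference between them was 45.9 points ± 9.65 (SD, n = 4 libraries, exact sign permutation p = 0.125, the smallest possible). At SAP30-bound promoters it was -3.30 ± 1.12. The mean share there was 93.9% to 97.4% in every CpG group, which left little room for a difference, and H3K4me3 ranks were not matched. Coding promoters of the SAP30-clear class went from 61.4% of 57 to 7.89% of 76 and lncRNA promoters from 57.6% of 33 to 15.4% of 13. Pol II at SAP30-clear promoters was also most frequent in the CpG-poorest group, with 10.0%, against 2.25% in the CpG-richest. Over all region-negative promoters Pol II ran the other way, with 14.8% in the CpG-poorest and 42.5% in the CpG-richest group (-20.8 points ± 5.03 by library, and -21.0 ± 5.64 at SAP30-bound promoters). H3K9Ac over all region-negative promoters did not fall steadily, with 69.4%, 42.3%, 40.3% and 49.2% from the CpG-poorest to the CpG-richest group. These CpG groups were compared after the data had been seen.

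**Figure D4:**
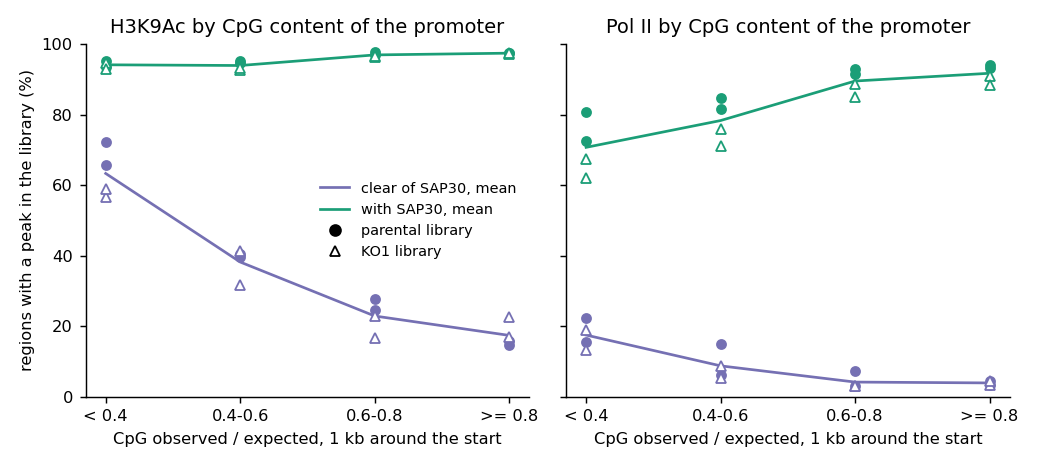
Share of promoters with an H3K9Ac (left) or Pol II (right) summit in each library, by the ratio of observed to expected CpG in the 1 kb around the start site. At SAP30-clear promoters the H3K9Ac mean fell from 63.3% to 17.4% as CpG content rose, while at SAP30-bound promoters it lay between 93.9% and 97.4%.

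HLA-DMB and KIAA1614, printed above, are a CpG-poor and a CpG-rich example. HLA-DMB encodes a chaperone that loads peptides onto class II antigen-presenting molecules. Its CpG ratio was 0.185, its H3K4me3 ranks were 56.8% and 58.2% in parental and 56.0% and 50.4% in KO1 cells, and H3K9Ac was present in 4 of 4 lists. KIAA1614 had a ratio of 0.789, parental H3K4me3 ranks of 62.4% and 63.5%, and H3K9Ac in 0 of 4 lists. Neither gene had a Pol II summit in any list. The SAP30-clear promoter with the strongest H3K4me3 was a start region of PLEC at chr8:145012508-145013526, with parental ranks of 11.5% and 11.9%. It had Pol II and H3K9Ac in 4 of 4 lists and lay 3452 bp from a SAP30 region. FUNDC1, which encodes a mitophagy receptor, was picked after its values were seen, as 1 of the SAP30-clear promoters with the strongest H3K4me3. Its ranks were 46.3% and 52.3% in parental and 54.1% and 49.8% in KO1 cells. With a CpG ratio of 0.496 it had H3K9Ac in 4 of 4 lists and Pol II in 3.

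Short promoter motifs were counted in the window from 250 bp before to 50 bp after each start site, on both strands, and none of the strings contains another. The ETS core CCGGAA was in 14.6% of region-negative, 28.9% of SAP30-bound promoters and 16.6% of 36735 windows, 1 per coding or lncRNA gene. The GC box GGGCGG was in 61.2%, 75.1% and 43.4%, and the TATA box TATAAA in 8.96%, 3.99% and 12.6%. Among promoters ranked beyond 50%, GGGCGG was in 55.7% of region-negative and 59.5% of SAP30-bound ones, CCGGAA in 12.8% and 15.6%, and TATAAA in 9.04% and 7.39%. The AP-1 motif TGACTCA was in 4.21% of region-negative and 3.17% of SAP30-bound windows, but among promoters ranked beyond 50% the order was the opposite, at 4.85% and 8.67%. The CCAAT box was in 27% and 33.2%, and the E-box CACGTG in 5.62% and 9.40%, of region-negative and SAP30-bound windows. Over all genes they were in 35.6% and 7.24%. Among promoters ranked beyond 50%, CCAAT was in 27.2% of region-negative and 30.4% of SAP30-bound ones, and CACGTG in 5.62% and 7.23%.

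By gene family, region-negative promoters were unevenly spread. Of all coding H3K4me3 promoters 7.30% were region-negative, and of all lncRNA ones 16.5%. Housekeeping families were nearly empty, with 0 of 70 ribosomal protein and 1 of 77 oxidative phosphorylation promoters, the latter being COX6B2, a testis-enriched subunit. KRAB and other zinc finger genes had 16 of 436 (3.67%). The protocadherins, neural cell adhesion genes that mostly lie in 1 cluster on chromosome 5, had 11 of 17 (64.7%). Cytokine, chemokine and interleukin receptor genes had 10 of 39 (25.6%), ion channels and receptors of excitable cells 15 of 62 (24.2%), developmental transcription factors 18 of 78 (23.1%), interferon and antigen presentation genes 8 of 45 (17.8%), solute carriers 24 of 207 (11.6%), mesenchymal and invasion genes 6 of 55 (10.9%), cancer-testis antigens 3 of 9 (33.3%), and keratins and epithelial genes 4 of 15 (26.7%). None of the 4 immune lineage promoters with H3K4me3 was region-negative. These counts describe the lists and were not tested.

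The marks that came with H3K4me3 are given by family beside the shares over all region-negative promoters, 48.1% for H3K9Ac and 25.8% for Pol II, and the families were not tested against each other. Interferon genes carried H3K9Ac at 6 of 8 region-negative promoters and Pol II at 1. IFITM1, IFI27 and GBP2, all interferon-induced, had H3K9Ac in 4 of 4 lists. The cytokine and receptor genes had H3K9Ac at 6 of 10 and Pol II at 0 of 10, among them TNFSF10, which encodes the death ligand TRAIL, and IL1R1, the interleukin-1 receptor. Channel genes had H3K9Ac at 3 of 15 and Pol II at 2 of 15. The potassium channel gene KCNQ3 had H3K4me3 ranks of 64.0% and 64.0% in parental and 70.7% and 57.5% in KO1 cells and no summit in any Pol II or H3K9Ac list. Solute carriers had Pol II at 8 of 24, and SLC16A3, the lactate exporter MCT4, had Pol II ranks of 0.439%, 0.626%, 0.754% and 0.416% beside a SAP30 region 301 bp away. The histone genes H2BC6 and H2AC14 had both marks in 4 of 4 lists.

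Epithelial genes were also found, although MDA-MB-231 is mesenchymal. ESR1, the estrogen receptor, was SAP30-clear at chr6:152128874-152129901 with H3K4me3 ranks of 59.0% and 61.6% in parental and 62.4% and 57.0% in KO1 cells, no Pol II in any list, and H3K9Ac in the KO1 lists alone, at 69.5% and 60.1%. CDH1, which encodes E-cadherin, had late parental ranks of 89.8% and 67.0% at chr16:68770772-68771851, no H3K4me3 in either KO1 list, and no Pol II or H3K9Ac in any list. CLDN3, a tight junction gene, had ranks of 64.5% and 65.1% in parental cells and no H3K4me3 in KO1 cells. The epithelial splicing factor ESRP1 was adjacent to SAP30 and had H3K4me3 in 4 of 4 lists. Among mesenchymal genes, ZEB2 and a start region of CAV1 were adjacent, and COL4A5, a basement membrane collagen, was SAP30-clear with H3K9Ac in 4 of 4 lists.

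Of the 6 best Pol II peaks at region-negative promoters, all but that of the lncRNA gene ENSG00000290039 lay beside a SAP30 region. At ZBTB4, a zinc finger gene, Pol II ranked at 0.0675% and 0.0696% in parental and 0.107% and 0.172% in KO1 cells. JUNB, a subunit of AP-1, had Pol II ranks of 0.0965% and 0.109% in parental and 0.0428% and 0.0316% in KO1 cells, while this H3K4me3 region ranked at 18.5% and 35.7%. TUBB4B, a beta-tubulin, and ING1, a reader of H3K4me3 in SIN3 complexes, were also adjacent and ranked under 1% in 4 of 4 Pol II lists. The lncRNA gene ENSG00000290039 at chr17:56736299-56737689 was unmatched, and Pol II ranked at 0.241% and 0.139% in parental and 1.78% and 2.58% in KO1 cells while H3K4me3 ranked at 84.8% and 88.5% in parental cells and was in neither KO1 list. H3K9Ac was at 36.8% and 51.8% there in parental cells and in neither KO1 list.

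In KO1 cells, 791 region-negative promoters (69.4%) had H3K4me3 in both lists, 120 in 1 list and 228 (20%) in neither, with 851 present in each KO1 list. Absence from both was found at 0.839% of SAP30-bound promoters, 2.47% of all H3K4me3 promoters and 6.18% of all 18303 H3K4me3 regions. By class, 7.12% of adjacent, 13.7% of unmatched and 32.4% of SAP30-clear promoters were absent (157 of 485). The share was 11.0% with summits extended by 250 bp, 24.5% with 1000 bp and 15.7% with the 4 lists shortened to 1 length. SAP30-bound promoters weighted to the rank groups of region-negative ones gave 8.51%, and weighted to those of the SAP30-clear class 11.6%. The last of the 10 rank groups held 689 region-negative promoters, and ranks were not matched within it. At ranks of 80% to 90%, 45.6% of 180 region-negative, 53.0% of 115 SAP30-clear and 28.4% of 134 SAP30-bound promoters were absent. Beyond 90% these shares were 61.8% of 76, 71.7% of 46 and 42.1% of 38. Absence followed rank, at 0 of 56 region-negative promoters with ranks of up to 10%, 9.96% of 281 at 60% to 70% and 61.8% of 76 beyond 90%. By mark, 32.1% of region-negative promoters with neither Pol II nor H3K9Ac were absent (177 of 551), against 12.2% with H3K9Ac alone and 4.72% with both. The median H3K4me3 ranks of these groups were 73.9%, 65.2% and 27.2%, in the same order as absence, and ranks were not matched between them.

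The selection required H3K4me3 in both parental lists, which fixes its presence there, so absence was also measured on promoters chosen in a single list. Region-negative promoters chosen in parental list 1 alone (n = 1348) were missing from parental list 2 at 13.2% and from the KO1 lists at 30.9% and 29.8%. Those chosen in parental list 2 alone (n = 1374) were missing from parental list 1 at 14.4% and from the KO1 lists at 32.5% and 31.3%. SAP30-bound promoters weighted to the same rank groups were missing at 12.2% from the other parental list and 20.7% and 21.3% from the KO1 lists. Those chosen in list 2 were missing at 9.89%, 19.7% and 21.5%. In both sets the KO1 lists missed more than the other parental list did. In the reverse direction, region-negative promoters chosen in KO1 list 1 (n = 1051) were missing from the other KO1 list at 11.5% and from the parental lists at 9.51% and 11.5%, and those chosen in KO1 list 2 (n = 1104) at 17.8%, 15.5% and 15.5%. With 2 libraries a line, no test of these shares could pass a threshold of 0.05.

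**Figure D5:**
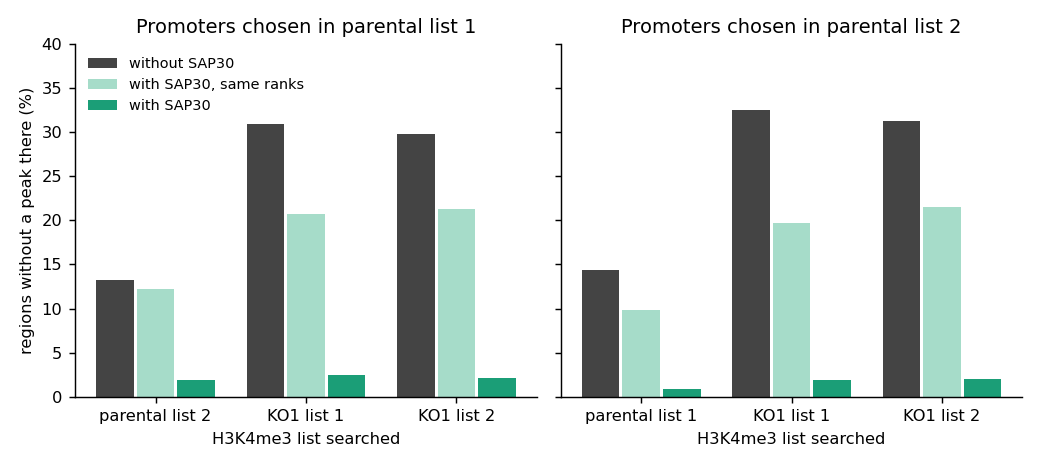
Percent of promoters chosen in 1 parental H3K4me3 list that had no peak in the other parental list or in each KO1 list. Bars are region-negative promoters, SAP30-bound promoters weighted to the same rank groups (drawn as same ranks) and all SAP30-bound promoters. Region-negative bars reached 29.8% to 32.5% in the KO1 lists against 13.2% and 14.4% in the other parental list.

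The distance from absent promoters to the nearest KO1 summit differed between classes. For the 20 adjacent promoters this summit lay at a median of 1407 bp, and for 14 of them within 2000 bp, just beyond the matching distance. Whether such summits were separate peaks that parental cells also had was not tested. For the 157 SAP30-clear promoters the median distance was 55289 bp, and in 133 of them it was over 10000 bp. Among the strongest absent promoters, ARID1A, a SWI/SNF remodeler subunit, had parental ranks of 20.9% and 1.78% and a KO1 summit 1195 bp away, with Pol II in 4 of 4 lists. PCDH7 and RNF208 were of the same kind, with KO1 summits at 1151 and 1058 bp. Another start region of PLEC, a cytoskeletal linker, was absent with a KO1 summit 3049 bp away. The SAP30-clear start region of PLEC described above had H3K4me3 in 4 of 4 lists, and whether this summit belonged to it was not tested. In contrast, at ASRGL1, which encodes an asparaginase-like enzyme, the nearest KO1 summit was 57520 bp away, and its parental H3K4me3 ranks were 55.7% and 54.9%. At LINC02582 H3K4me3 ranked at 50.9% and 55.6% and H3K9Ac at 48.7% and 80.5% in parental cells, while the nearest KO1 summits were 821420 and 821384 bp away. The cancer-testis genes MAGEC1 and MAGEC2 on chromosome X had parental H3K4me3 ranks of 63.7% and 66.2%, and 92.2% and 92.9%, and their nearest KO1 summits were 720214 and 1021084 bp away. Conversely, of 869 region-negative promoters built from both KO1 lists, 24 were absent from both parental lists. RAB40C, ETFB and SOCS3-DT had the best KO1 ranks of these, with parental summits 1317, 1061 and 1130 bp away, while BATF, an AP-1 family factor, had its nearest parental summit 55619 bp away and KO1 ranks of 76.3% and 68.9%.

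At the 791 region-negative promoters present in all 4 lists, the median H3K4me3 rank was 60.7% and 61.6% in parental and 68.0% and 63.9% in KO1 cells, a later rank by 4.80 points. Ranks were later in both KO1 lists than in both parental lists at 347 promoters (43.9%) and earlier at 76 (9.61%), against 30.7% and 10.5% of all H3K4me3 promoters. The shift was not separable from that of other promoters of the same strength: measured against SAP30-bound promoters of the same rank group it was 0.222 points, and with ranks taken only among regions present in all 4 lists it turned to -0.514 points. Adjacent promoters had 27% later, unmatched 52.7% and SAP30-clear 48.0%. Among the 5 largest moves to a later rank were TMEFF2, a transmembrane protein gene, from 53.6% and 58.2% to 97.7% and 86.5%, and KIAA1614, from 62.4% and 63.5% to 97.7% and 97.4%. ISYNA1, which encodes inositol-3-phosphate synthase, went from 63.6% and 63.9% to 91.2% and 97.3%. Among the 5 largest to an earlier rank were RETREG3, an endoplasmic reticulum receptor for autophagy, from 59.9% and 58.3% to 31.3% and 33.0%, PCDHAC1, from 96.5% and 81.7% to 66.8% and 57.6%, and the zinc finger gene ZNF676, from 90.6% and 93.0% to 68.7% and 67.1%. PCDHAC1 had H3K9Ac in the KO1 lists alone, at 48.2% and 39.6%, and no Pol II in any list.

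Pol II at region-negative promoters did not differ between lines beyond the spread of libraries. The share with a summit was 30.5% ± 2.73 (SD, n = 2) in parental and 27.8% ± 2.3 in KO1 cells, a difference of -2.68 points (exact two-sided permutation p = 0.667, where the smallest possible is 0.33), and the libraries of the lines overlapped. For H3K9Ac it was 56.1% ± 1.55 and 53.0% ± 2.11, a difference of -3.12 points (exact permutation p = 0.333), and the libraries did not overlap. Such a p does not show that the lines were alike. Pol II was in both parental lists and neither KO1 list at 21 of 281 region-negative promoters (7.47%), against 3.08% of all H3K4me3 promoters, and in both KO1 lists and neither parental list at 15 of 726 that had none in parental cells (2.07%), against 2.86% of all 1536 such H3K4me3 promoters. H3K9Ac was lost in this sense at 48 of 539 (8.91%), against 0.838% of all H3K4me3 promoters, and gained at 33 of 399 (8.27%), against 10.1% of all 606 such promoters. The 48 had weaker H3K9Ac peaks, with a median of the mean parental rank of 68.3%, against 35.2% for all 539. By class, H3K9Ac was lost at 1.98% of 202 adjacent, 9.22% of 206 unmatched and 19.1% of 131 SAP30-clear promoters.

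The 21 promoters that lost Pol II had mean parental Pol II ranks of 48.1% to 86.2%, with a median of 74.2%, against a median of 36.3% for all 281 with Pol II in both parental lists. ZNF879 had Pol II at 91.8% and 72.0% in parental cells and none in KO1 cells, with H3K4me3 and H3K9Ac in 4 of 4 lists. BST2, the interferon-induced antiviral factor tetherin, had Pol II at 78.7% and 93.8% and DNMT3A, a de novo DNA methyltransferase, at 78.6% and 75.2%, in both cases with H3K4me3 and H3K9Ac kept in KO1 cells. SLC44A2, a choline transporter gene, had Pol II at 67.9% and 84.8%. The 4 strongest that gained Pol II were adjacent to SAP30, and each had a parental Pol II summit between 1016 and 1340 bp away, just beyond the matching distance. SLC25A28, a mitochondrial iron importer, had Pol II at 17.4% and 9.58% in KO1 cells, and CNOT8, a deadenylase subunit, at 12.2% and 9.46%. MSL1, a subunit of a histone H4 acetyltransferase complex, had 49.1% and 47.1%, and MEMO1 12.4% and 15.6%. H3K9Ac was lost at JAG1, the Notch ligand, from ranks of 0.731% and 0.194%, although a KO1 summit lay 1214 bp away, and at SH2D3A from 99.7% and 51.7%. It was gained at SMARCA2, a SWI/SNF ATPase, at 22.7% and 13.5%, with a parental summit 1133 bp away, and at LRAT, a retinol-esterifying enzyme, at 70.8% and 71.2%, where the nearest parental summit was 116976 bp away.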

How the data were processed

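Chromatin of MDA-MB-231 cells had been profiled by ChIP-Seq, and the analysis began from the summit lists that the authors deposited, 1 list per library and 18 lists in all. The other 12 of 30 samples (inputs and histone H3) had no list here and were not used. The submitters' processing notes name Bowtie2 2.3.3.1, FastQC 0.11.2, Picard, MACS2 2.1.0 and the build hg19. Each summit was 1 bp wide, and its deposited score was the −log10 q-value of MACS2. Read depth was not given in the sources used here, and scores were used only to rank summits within a list.

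Summits were extended by 500 bp and merged per group, and regions with both replicates were kept. Start sites were those of GENCODE release 44 on GRCh37 (84139 coding and lncRNA sites). A mark was present in a library when a summit lay within 1000 bp of the region's summit span, and a share of regions required overlap with a region of both replicates. Groups were compared by exact two-sided permutation of libraries, or by exact sign permutation over 4 libraries. Intervals were 95% Wilson intervals. For weighting, SAP30-bound promoters were given the region-negative distribution over 10 groups of H3K4me3 rank, and ranks within a group were not matched. Promoter sequence came from the GRCh37 genome. The genes named were the 10 best-ranked for H3K4me3, the 6 best for Pol II, the 6 best absent from KO1, the 5 largest rank changes each way, the 3 nearest the selection border on each side, the 4 best that lost or gained each mark, up to 4 of each gene list, and genes of the study. The classes, the CpG groups, FUNDC1 and the SAP30-clear start region of PLEC were added after the values were seen. Members, classes and lists were chosen with earlier results of these data known. Alternatives were another extension, promoter window, SAP30 criterion, rank limit, list length and CpG window, a replicate block and leaving out each library. Scripts used Python 3.11.15, numpy 2.4.6, pandas 2.3.3, scipy 1.17.1 and matplotlib 3.10.9, and were tested on simulated regions, where 6 of 6 quantities were recovered.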

Additional observations from a re-analysis of the deposited data

Results flagged for a closer look

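The change between lines in the share of promoters with a matched Pol II summit went in opposite directions in different classes of promoters. The share of SAP30-adjacent promoters with a Pol II summit was higher in KO1 cells by 2.85 points (66.9% and 67.6% in parental, 71.2% and 69.0% in KO1 cells), whereas that of SAP30-bound promoters was lower (90.5% and 92.2% against 87.6% and 84.3%, a change of -5.37 points). The difference of the changes was 8.22 points, with an exact two-sided permutation p of 0.333, the smallest that 2 against 2 libraries can give. At unmatched promoters the change was -7.51 points (28.4% and 33.5% against 26.5% and 20.4%), which differed from the adjacent class by -10.4 points (exact permutation p = 0.333). The classes share libraries and were set after the data had been seen, and these were 2 of the 12 pairs of sets compared over both marks. Other pairs reached the same exact permutation p of 0.333. These were SAP30-clear promoters against each other set for Pol II, and against SAP30-bound promoters for H3K9Ac. In the adjacent class, 11 promoters had Pol II in both KO1 lists and neither parental list, and 4 the reverse. The 4 of these gains with the strongest H3K4me3 had a parental Pol II summit 1016 to 1340 bp away, just beyond the matching distance. The part of such nearby summits in the rise was not tested.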

How the results depend on the processing

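Of 59 alternative values, 26 were counted as not moved, 32 as moved and 1 as reversed. For differences in Pol II and H3K9Ac shares, between sets or lines, alternatives that kept their sign counted as not moved even when their size changed. Rank weighting took the region-negative minus SAP30-bound difference from -59.5 to -27.1 points for Pol II. For H3K9Ac it went from -42.2 to -27.6, and both were counted as not moved. So was a KO1 change in Pol II of -0.746 points with 1 library left out, against -2.68. With summits extended by 250 bp, Pol II, H3K9Ac and absence from KO1 were 45.8%, 64.2% and 11.0%, and with 1000 bp 10.8%, 38.5% and 24.5%. Without any SAP30 summit (635 promoters) they were 18.3%, 37.8% and 26.6%, and in the better-ranked 50% of the H3K4me3 lists (227) 88.1%, 89.0% and 4.85%. A promoter window of 3000 bp gave 22.8% for Pol II, and lists of equal length 15.7% for absence. The classes, split after seeing the data, gave 66.2%, 75.4% and 7.12% (adjacent), 23.3%, 55.0% and 13.7% (unmatched) and 4.33%, 27% and 32.4% (SAP30-clear). With 1 library left out, Pol II was 28.5% to 32.4%, H3K9Ac 55.0% to 57.2% and absence 25.3% either way. The later H3K4me3 rank in KO1 cells, 4.80 points, turned to -0.514 when ranked among regions in all 4 lists, became 0.222 against SAP30-bound promoters of the same rank group, and was 2.76 to 6.85 with 1 library left out. The CpG ratio was 0.726 within 250 bp and 0.609 within 1000 bp of the start site. With replicate numbers as a block, the KO1 changes were -2.68 points for Pol II (exact permutation p = 1) and -3.12 for H3K9Ac (exact permutation p = 0.5, the smallest possible). Nothing in the labels says that a number marks a shared culture, so no pairing was assumed. Leaving out 1 library gave -4.61 to -0.746 and -4.61 to -1.62. The causes of these moves were not tested. Read depth was unknown, so a missing summit cannot be told apart from a weak one.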
